A study of Homo sapiens with 2 samples.

Results

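The nuclear-encoded subunits of the mitochondrial respiratory chain and ATP synthase were described by complex in HCT116, a human colorectal cancer cell line. Members follow a rule on gene symbols that uses no measured value, set with earlier results of these data known: NDUFA, NDUFB, NDUFC, NDUFS and NDUFV genes without the NDUFAF assembly factors, UQCR genes, COX4 to COX8 genes, ATP5 genes, the SDHA to SDHD genes and CYC1, protein-coding and read by a probe set paired with that gene alone. This gave 80 members of 19775 genes with such a probe set. The members were 33 subunits of complex I, 3 of complex II, 7 of complex III, 19 of complex IV and 18 of complex V. COXFA4 and COXFA4L2, whose older symbols are NDUFA4 and NDUFA4L2, were counted through those older symbols and placed with complex IV. Some further genes meet the symbol rule but are not analysed here, SDHB and UQCRFS1 among them.

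The study had 2 arrays, each from total RNA of 1 culture. HCT116-CPEB4 is the line in which a lentivirus was used to over-express CPEB4, an RNA-binding protein that acts on poly(A) tails and translation. HCT116-GFP is described as wild type, and the labels do not say whether it received a vector of its own. They also leave out the promoter of the vector and whether either line is a clone or a mixed population. Both lines grew in the same medium with fetal calf serum and antibiotics, and no further treatment is named. With 1 array a group there is no spread between replicates, so no test was made, and precision is limited by there being 1 array on each side.

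The targeted gene did not read higher on the array labelled HCT116-CPEB4. The probe sets of CPEB4 read 628, 558, 174 and 21.0 on that array, against 731, 758, 183 and 60.1 on the HCT116-GFP array. Directions below therefore rest on the labels, and the first array is called the CPEB4-labelled array. Median intensity over all probe sets was 61.1 on the CPEB4-labelled array and 60.6 on the HCT116-GFP array. Of 14 colon epithelial markers, 10 were at or above the dim filter on both arrays, EPCAM, KRT18 and KRT19 among them, while LGALS4, CDH17 and GPA33 lay under it on both. Of 7 fibroblast, 7 blood and immune and 4 endothelial markers with a probe set, 1 of each was at or above that filter on both arrays (COL1A1, CD79A and PECAM1), and PTPRC was under it on both. The ratio of 3′ to 5′ signal, a sign of RNA quality, was 10.3 on the CPEB4-labelled array and 8.23 on the HCT116-GFP array for ACTB, and 1.04 and 0.989 for GAPDH, and its part in the results below was not tested.

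The respiratory chain passes electrons from NADH (complex I) and succinate (complex II) through ubiquinone to complex III, then through cytochrome c to complex IV, which reduces oxygen. Complexes I, III and IV pump protons across the inner membrane, and complex V, the ATP synthase, lets them return and makes ATP. A few catalytic subunits are encoded by mitochondrial DNA, and the nuclear genes described here supply the rest, both catalytic subunits and the many small accessory proteins around them. In colon epithelium, as in most tissues, these genes are widely expressed, while a few subunits of complex IV have forms made mainly in muscle, in testis or under low oxygen.

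Nearly all members were close to equal on the arrays, with a shift of a few percent toward the CPEB4-labelled array. Of the 80 members, 74 passed the dim filter, which keeps a probe set whose higher intensity reaches 60.8 units, the 50th percentile of all values. Each gene takes the value of its brightest kept probe set, and every difference is the log2 of the CPEB4-labelled intensity minus that of HCT116-GFP. Of the 74 members, 49 lay above 0 (66.2%) and 25 below, where 50.1% of the 13704 genes kept by the filter lay above 0 and 49.9% below. Their median difference was 0.06, a ratio of 1.04, and the interquartile range ran from −0.03 to 0.16. The median of all genes was 0.00, with an interquartile range from −0.23 to 0.22.

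Large differences were scarce. A rule of size was set at 25% higher or 20% lower, which are the same step of 0.32 up or down on the log2 scale. By it 5 members were higher (6.76%) and 2 lower (2.70%), against backgrounds of 17.7% and 17.9%. At 2-fold 1 member was higher, against a background of 3.55%, and 0 were lower, against 3.85%. Differences shrink with brightness on these arrays, and 72 of the 74 kept members lay in the brightest 25% of genes. In that bin 48 of 72 members lay above 0, against 47.6% of all genes. There 4 of the 72 members and 6.80% of all genes were at least 25% higher, and 1 of the 72 members and 7.62% of all genes were at least 20% lower. The interquartile range of the differences in that bin was 0.19 wide for members and 0.29 wide for all genes. Members are also brighter within the bin: 36 of the 72 members, but 352 of its 3426 genes, reached 14011 units. The shares and the width for all genes of the bin are thus not matched to the members in brightness. The part of brightness in the narrower range was not tested.

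**Figure D1:**
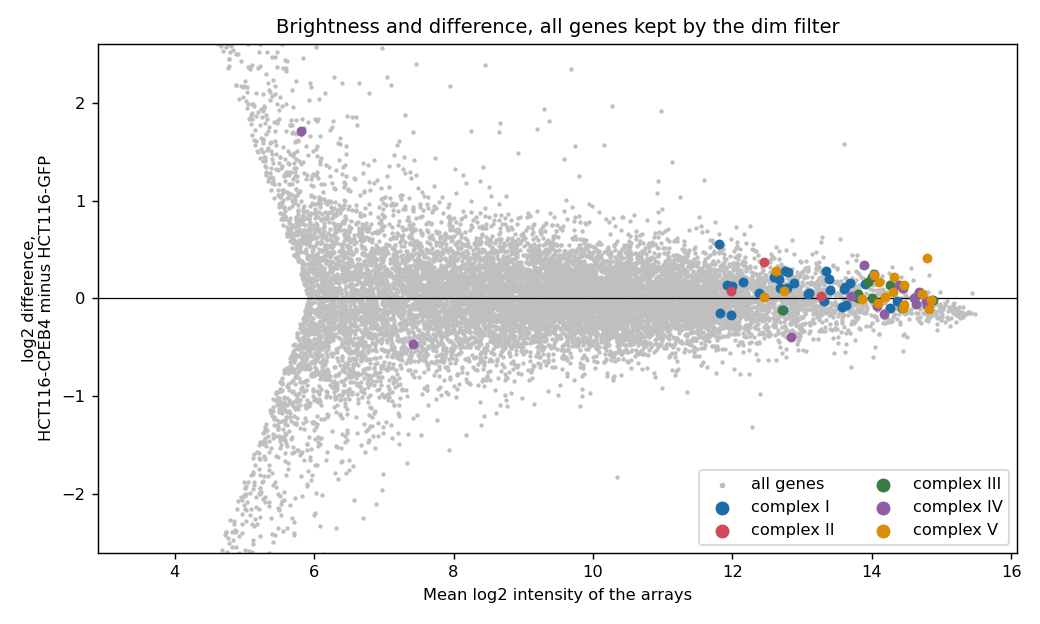
Mean log2 intensity of the arrays (horizontal axis) against the log2 difference of HCT116-CPEB4 minus HCT116-GFP (vertical axis) for the 13704 genes kept by the dim filter (grey) and the 74 kept subunits (colours by complex). The 206 genes beyond ±2.6 are outside the axis, and all but COX6A2 and COX4I2 of the subunits lie in the bright and narrow part of the cloud.

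The complexes differed little from one another. The median difference was 0.11 for complex I, 0.08 for complex II, 0.01 for complex III, −0.01 for complex IV and 0.05 for complex V. Above 0 lay 24 of 33 members of complex I, 3 of 3 of complex II, 4 of 7 of complex III, 7 of 14 of complex IV and 11 of 17 of complex V, each beside the background of 50.1%. The order of these medians was not tested, and it changed with the settings. Complex V stood above complex I under the mean over probe sets, at 0.14 and 0.10, and without _x_at and _s_at probe sets (suffixes that mark possible cross-hybridisation), at 0.19 and 0.11. Complex IV was above 0 after quantile normalization (0.05) and loess (0.04).

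**Figure D2:**
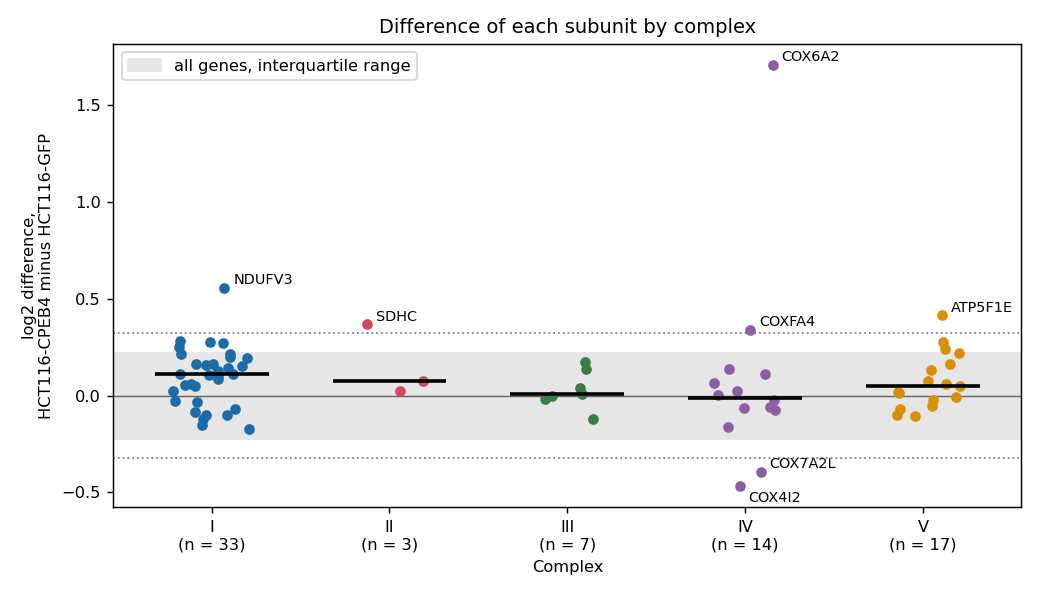
The log2 difference (HCT116-CPEB4 minus HCT116-GFP) of each of the 74 kept subunits, by complex, with a bar at the median of the complex, dotted lines at the rule of size and the interquartile range of all genes shaded. The 7 named points are those at least 25% higher or 20% lower, and most others lie inside the shaded band.

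Complex I takes electrons from NADH through a flavin and a chain of iron-sulphur clusters. Among its 5 core subunits measured, 4 lay above 0, against 50.1% of all genes, and the median was 0.13. With so few genes, this count does not set the core apart from that background. NDUFV2, which holds an iron-sulphur cluster beside the flavin, read 11418 on the CPEB4-labelled array and 9378 on the HCT116-GFP array (0.28). NDUFV1, the subunit that binds NADH and the flavin, went the other way, at 3438 on the CPEB4-labelled array and 3819 on the HCT116-GFP array (−0.15). These neighbours in the tip of the complex thus differed in opposite directions, each inside the rule of size. NDUFS1, the large iron-sulphur subunit, read 4267.5 against 3904 (0.13), NDUFS3 read 6825 against 6335 (0.11), and NDUFS7, next to the ubiquinone site, read 4065 against 3688 (0.14), in each case with the CPEB4-labelled value first.

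NDUFV3, an accessory subunit of the NADH-oxidising tip, had the widest difference in complex I. Its brightest probe set read 4366 on the CPEB4-labelled array and 2966 on the HCT116-GFP array (0.56, a ratio of 1.47), at percentile 91.3 of all genes. A second probe set gave 353 and 335 on those arrays (0.07), so the size rests on 1 probe set. NDUFS4 and NDUFC1 differed by 0.11 and 0.15, and NDUFS6 by −0.03. The other probe set of NDUFC1 read −0.24, so its sign depends on the probe set.

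The NDUFA accessory subunits leaned upward, with 10 of 13 above 0 and a median of 0.11. NDUFA3 read 7636 on the CPEB4-labelled array and 6301 on the HCT116-GFP array (0.28). NDUFA1, a small subunit of the membrane arm, read 18260 and 15320 on those arrays (0.25). NDUFA7 and NDUFA6 followed at 0.22 and 0.20, then NDUFA9 and NDUFA2 at 0.16 each, NDUFA13 at 0.11, NDUFA12 at 0.08, NDUFA10 at 0.06 and NDUFA5 at 0.05. The sign of NDUFA2 and NDUFA10 depends on the probe set, since their dimmer kept ones read −0.38 and −0.11. The 3 members below 0 were NDUFA8, at 6504 on the CPEB4-labelled array and 7071 on the HCT116-GFP array (−0.12), NDUFAB1, the mitochondrial acyl carrier protein, at 21311 and 22849 (−0.10), and NDUFA11 (−0.07).

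Of the NDUFB subunits, which build the far part of the membrane arm, 7 of 11 lay above 0, and the median was 0.05. The share over all genes was 50.1%, and 47.6% in the brightest 25%. NDUFB3 read 7799 on the CPEB4-labelled array and 6467 on the HCT116-GFP array (0.27), and NDUFB10 read 17677 and 15210 (0.22). NDUFB11 differed by 0.20, NDUFB8 by 0.16, NDUFB1 by 0.10, NDUFB2 by 0.05 and NDUFB6 by 0.03. The 3 kept probe sets of NDUFB8 read 0.16, 0.12 and −0.49, with a mean of −0.07. On the lower side, NDUFB7 read 3816 on the CPEB4-labelled array and 4301 on the HCT116-GFP array (−0.17), with its second, dimmer probe set at −0.87. NDUFB4, NDUFB5 and NDUFB9 differed by −0.10, −0.08 and −0.03. By its brightest probe set none of the 33 complex I members was at least 20% lower. All 33 lie in the brightest 25% of genes, where the background is 7.62%, so finding none does not set complex I apart. Under the mean over probe sets NDUFB7 differed by −0.52. Without _x_at and _s_at probe sets NDUFA2, NDUFB4 and NDUFB7 differed by −0.38, −0.42 and −0.87. The higher side moved too, such as NDUFS7 at 0.83 and 1.53 under these settings.

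Complex II joins the citric acid cycle to the chain. SDHA, its flavoprotein, read 4142 on the CPEB4-labelled array and 3931 on the HCT116-GFP array (0.08). The 1 probe set of SDHA carries the _x_at suffix, and its difference is also the median of the complex. SDHD, a membrane anchor, read 9983 and 9811 on those arrays (0.03). SDHC, the other anchor, read 6367 on the CPEB4-labelled array and 4932 on the HCT116-GFP array at its brightest probe set (0.37), which puts it past the rule of size. Its 7 kept probe sets did not share a sign. The next 3 by brightness read −0.16, −0.11 and −0.26, the fifth read 639 and 430 (0.57), and the last ones read 0.05 and −0.30. Averaged over its probe sets SDHC differed by 0.02, so its direction is not settled.

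Complex III members lay closest to equality. CYC1, the haem-bearing subunit that reduces cytochrome c, read 14337 on the CPEB4-labelled array and 14342 on the HCT116-GFP array (0.00). The core proteins UQCRC1 and UQCRC2 differed by −0.12 (6441 against 6997) and 0.04 (14512 against 14112), again with the CPEB4-labelled value first. Among the small subunits, UQCR11 read 16750 on the CPEB4-labelled array and 14862 on the HCT116-GFP array (0.17), and UQCR10 read 20601 and 18719 (0.14), and the dimmer probe set of UQCR10 differed by −0.24. UQCRQ differed by 0.01. UQCRB differed by −0.02, and its 4 probe sets ran from −0.48 to 0.29. By its brightest probe set no member of complex III reached the rule of size in either direction. The dimmer probe set of UQCR11 differed by 0.52, and its mean over probe sets was 0.35, both past that rule. All members of complex III lie in the brightest 25% of genes, where 6.80% passed the rule on the higher side and 7.62% on the lower. With so few genes, finding none does not set complex III apart from that background.

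Complex IV was split evenly among the 10 subunits made in most tissues, with 5 above 0, 5 below and a median of −0.01. Of its conserved subunits around the catalytic core, COX4I1 read 24919 on the CPEB4-labelled array and 25940 on the HCT116-GFP array (−0.06), COX5A read 23207 and 21485 (0.11), and COX5B read 16735 and 17621 (−0.07). The sign of COX4I1 and COX5B depends on the probe set. Other kept probe sets read 0.11 and 0.20 for COX4I1, and 0.02, 0.00 and −0.96 for COX5B. COX8A was the lowest of the 10 at 17512 on the CPEB4-labelled array and 19588 on the HCT116-GFP array (−0.16), and COX7B the highest at 22400.5 and 20374 (0.14). The others were COX6A1 (0.07), COX6B1 (0.02), COX7A2 (0.00), COX7C (−0.02) and COX6C (−0.06). After quantile normalization COX4I1, COX6C and COX7C lay above 0, so the even split depends on the settings. By its brightest probe set none of the 10 reached the rule of size. All 10 lie in the brightest 25% of genes, where 6.80% passed it on the higher side and 7.62% on the lower. With so few genes, finding none does not set these subunits apart from that background.

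The proteins that attach to complex IV or were assigned to it later stood further out, in opposite directions. COXFA4, once counted with complex I, read 17046 on the CPEB4-labelled array and 13462 on the HCT116-GFP array (0.34, a ratio of 1.27). COX7A2L, a relative of COX7A2 that helps complexes III and IV join into supercomplexes, read 6393 on the CPEB4-labelled array and 8401 on the HCT116-GFP array (−0.39), at percentile 14.3 of all genes. HCT116-GFP was thus 1.31-fold above the CPEB4-labelled array for COX7A2L. Each of these genes has 1 probe set, so no second reading checks it.

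The forms of complex IV subunits known from muscle, testis or low oxygen were dim. COX7A1, COX7B2, COX8C, COX6B2 and COXFA4L2 lay under the dim filter on both arrays. COX6A2, the striated muscle form of COX6A1, read 101 on the CPEB4-labelled array and 31.0 on the HCT116-GFP array (1.71), at percentile 98.3. That is the 1 member past 2-fold, and its HCT116-GFP value lay under the filter. With an offset of 50 added to both intensities it differed by 0.90. In the list of striated muscle markers 7 of 9 read higher on the CPEB4-labelled array, 4 of 9 were at or above the filter on both arrays, and the summed intensity was 1885 on the CPEB4-labelled array and 2158 on the HCT116-GFP array. The brightest, TNNI3, read 1206 on the CPEB4-labelled array and 1683 on the HCT116-GFP array (−0.48), and holds most of both sums. MYH7 (91.9 and 23.6) and ACTA1 (88.2 and 23.3, CPEB4-labelled first) passed the filter by their CPEB4-labelled value alone, and CKM was under it on both arrays. Both arrays come from cultures of the HCT116 line, and the cause of the COX6A2 value was not tested. In bulk RNA fewer cells of a type and less RNA per cell cannot be told apart. COX4I2, the form of COX4I1 induced by low oxygen, read 145 on the CPEB4-labelled array and 200.3 on the HCT116-GFP array (−0.47), at percentile 11.3.

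**Figure D3:**
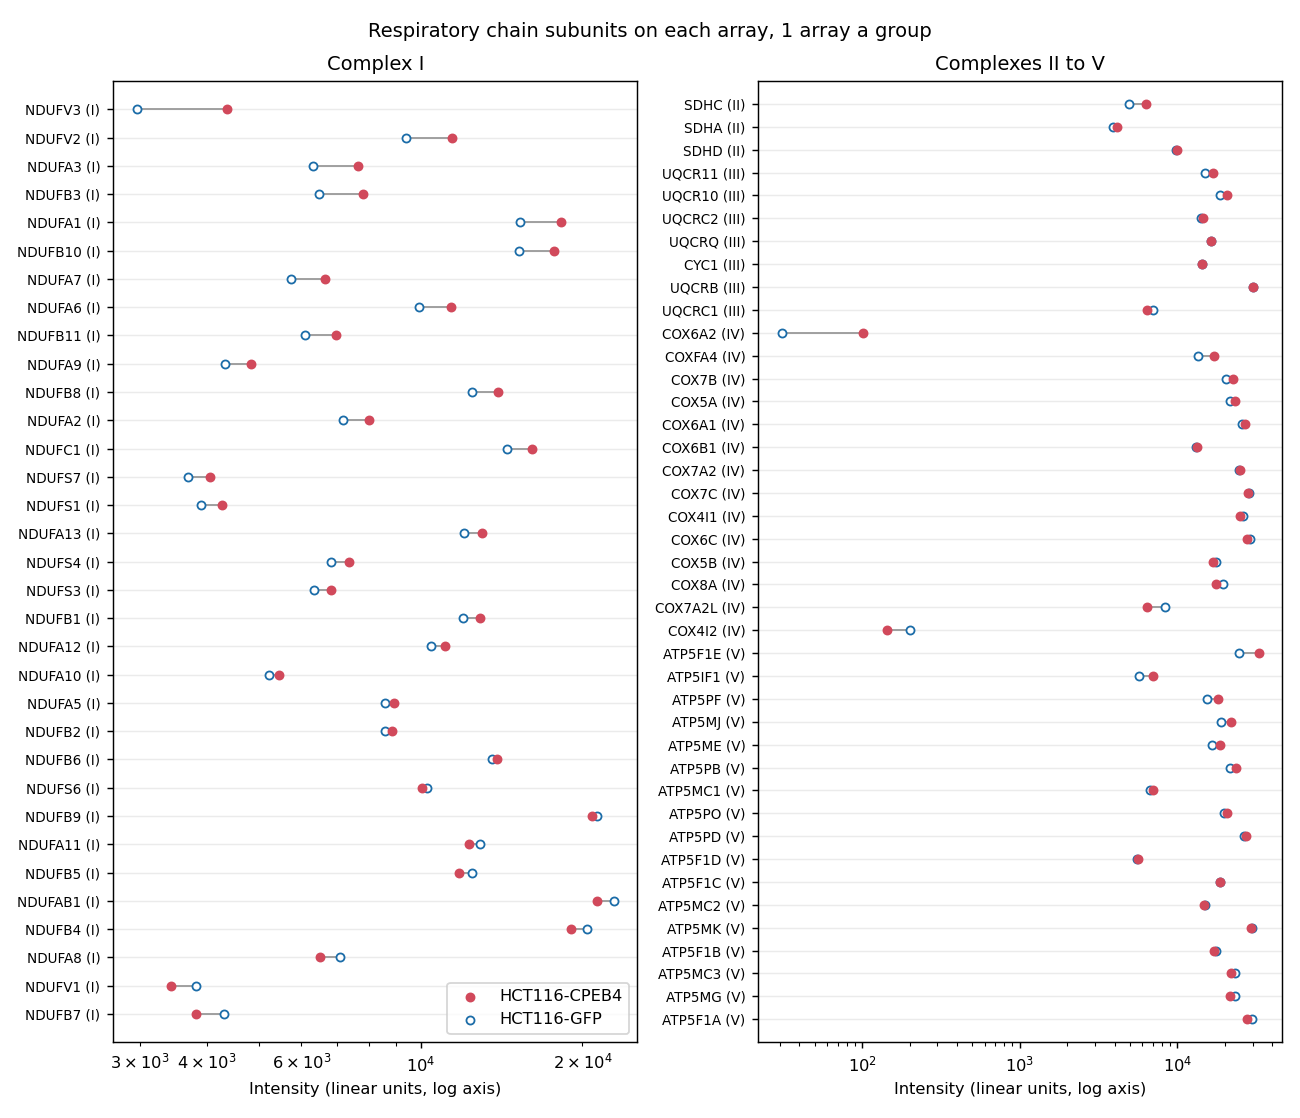
Intensity of each of the 74 kept subunits on the HCT116-CPEB4 array (filled) and the HCT116-GFP array (open), on a log axis, with complex I at left and complexes II to V at right, ordered within a complex by difference. The pairs nearly coincide except for a few such as NDUFV3, SDHC, COX6A2 and ATP5F1E, and levels of different genes cannot be compared, since each is read by its own probes.

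Complex V makes ATP in a catalytic head that is turned by a ring of c subunits in the membrane. In the head, the alpha and beta subunits, which form the catalytic sites, were slightly lower: ATP5F1A read 27818 on the CPEB4-labelled array and 29939 on the HCT116-GFP array (−0.11), and ATP5F1B read 17051 and 17676 (−0.05). The stalk subunits of the head ATP5F1C and ATP5F1D differed by 0.01 and 0.02. ATP5F1E, the epsilon subunit and the smallest of the head, read 32756 on the CPEB4-labelled array and 24583 on the HCT116-GFP array (0.41, a ratio of 1.33). It was thus the bright member with the widest shift in complex V, read by 1 kept probe set. It stayed between 0.41 and 0.51 under the other settings, of which only quantile normalization, loess and the offset could move it. The next highest was the inhibitor ATP5IF1, which blocks hydrolysis of ATP by the enzyme, at 6959 on the CPEB4-labelled array and 5751 on the HCT116-GFP array (0.28). Its other kept probe sets read 0.68 and 0.62, so all 3 lay on the same side.

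The 3 genes that encode the c subunit, and share its mature protein, differed by 0.08 (ATP5MC1), −0.01 (ATP5MC2) and −0.07 (ATP5MC3). ATP5MC1 read 7016 on the CPEB4-labelled array and 6659 on the HCT116-GFP array, ATP5MC2 read 14814 and 14874, and ATP5MC3 read 21986 and 23095. None of them came near the rule of size, and the probe sets of ATP5MC3 ran from −0.07 to 0.16. In the brightest 25% of genes, where all 3 lie, 6.80% passed that rule on the higher side and 7.62% on the lower.

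All 4 peripheral stalk subunits, which hold the head still, lay above 0, against 50.1% of all genes. With so few genes, this count does not set the stalk apart from that background. ATP5PF read 18195 on the CPEB4-labelled array and 15388 on the HCT116-GFP array (0.24), ATP5PB differed by 0.13, ATP5PO by 0.06 and ATP5PD by 0.05. Among small membrane subunits, ATP5MJ read 22013 on the CPEB4-labelled array and 18893 on the HCT116-GFP array (0.22), ATP5ME differed by 0.16, ATP5MK by −0.02 and ATP5MG by −0.10 (21459 against 23047, CPEB4-labelled first). The second probe set of ATP5ME read 0.59, and the 1 probe set of ATP5MG without the _x_at suffix read 0.19, so the sign of ATP5MG depends on the probe set. The probe set paired with ATP5MF alone lay under the dim filter, at 9.83 on the CPEB4-labelled array and 10.6 on the HCT116-GFP array. The highest members of complex V were thus the epsilon subunit, the inhibitor and single subunits of the stalk and membrane part, while the catalytic pair lay below 0. Both genes of that pair are brighter than 14011 units, a range where 32.4% of all genes lay above 0. Under other settings ATP5F1A and ATP5F1B came as near to equality as −0.02 and −0.01. Their differences are smaller than the median gap of 0.18 between probe sets of a member, so the contrast is not settled.

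Agreement between probe sets gives the nearest thing to a technical spread here. Of the 154 probe sets of the members, 131 passed the dim filter, and 34 members had more than 1. The absolute gap between the differences of their brightest 2 probe sets had a median of 0.18, the same as over the 2182 genes of the brightest 25% with such a pair (0.18). The kept probe sets shared a sign in 20 of the 34 members and not in 14. With probe sets past the stricter filter of 377 units alone, 13 of 22 members had 1 sign, and the widest gap was that of SDHC (0.52). The widest gaps between the brightest 2 were those of NDUFS7 (0.14 and 1.53), ATP5PD (0.05 and 0.97), COX7B (0.14 and 0.98), NDUFB7 (−0.17 and −0.87) and NDUFA7 (0.22 and 0.89). In each of these 5 the second probe set was below 377 units on both arrays, such as the second of NDUFS7 at 121 on the CPEB4-labelled array and 41.9 on the HCT116-GFP array. Over all kept probe sets the range was widest for ATP5PO, from 0.06 to 3.94 (its dimmest read 61.2 on the CPEB4-labelled array and lay under the dim filter on the HCT116-GFP array), and for NDUFS1, from −0.26 to 1.85. Their means over probe sets were 1.43 and 0.48.

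**Figure D4:**
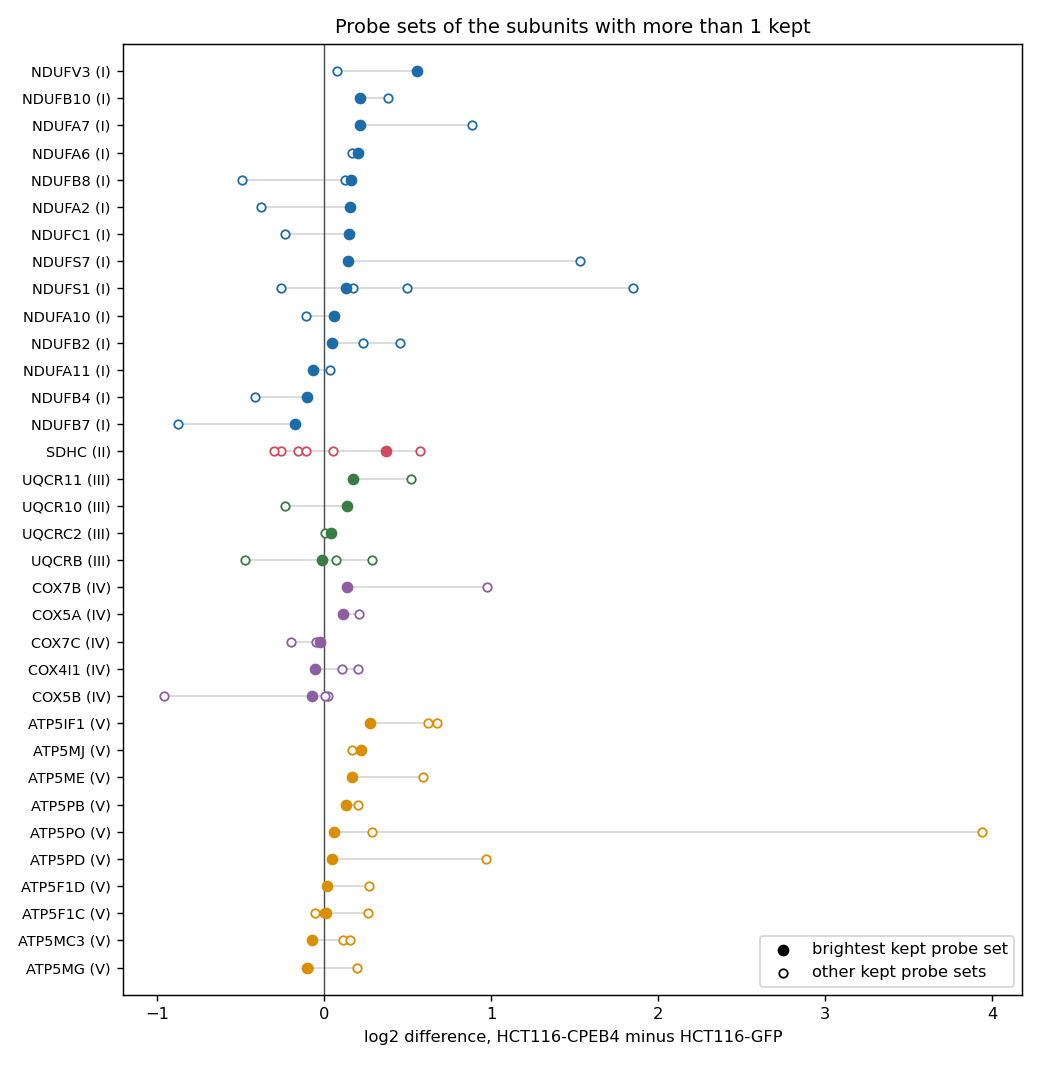
The log2 difference (HCT116-CPEB4 minus HCT116-GFP) at each kept probe set of the 34 subunits with more than 1, with the brightest filled and the others open. Most filled points lie near 0, the open points scatter to both sides, and the 7 probe sets of SDHC run from −0.30 to 0.57.

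Brightness moved with the difference. Among the 72 members in the brightest 25% of genes, the 36 at or above their median brightness of 14011 units had a median difference of 0.01, with 20 above 0, and the 36 below it had a median of 0.09, with 28 above 0. Genes of the same bin ran in parallel: 32.4% of the 352 at or above that level lay above 0 (median −0.07), and 49.3% of the 3074 below it (median 0.00). The brightest genes of all thus leaned toward HCT116-GFP, and in both ranges a larger share of the members lay above 0 than of all genes. Loess subtracts such a trend by construction. After quantile normalization 57 of the 74 members lay above 0 and after loess 56, and the median of complex IV was 0.05 and 0.04 under these settings.

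Proteins that build the complexes without staying in them also lay above 0 more often than not. Of 62 kept assembly factors of the 63 listed, 44 lay above 0 (71.0%, against 50.1% of all genes), with a median of 0.11. Of the 62, 11 were at least 25% higher (17.7%, against 17.7% of all genes), and 1 was at least 20% lower (against 17.9%). In the brightest 25% of genes 6.80% were at least 25% higher and 7.62% at least 20% lower. In the 25% of genes next to these the shares were 13.1% and 12.3%. The shares over all genes are thus not matched to the assembly factors in brightness. For complex I, 14 of 17 assembly factors lay above 0, with NDUFAF4 at 6096 on the CPEB4-labelled array and 4679 on the HCT116-GFP array (0.38, or −0.17 by its dimmer probe set) and NUBPL, which delivers iron-sulphur clusters, at 507 and 389 (0.38). Those of complex II were split, 2 above 0 and 2 below, with SDHAF1 at 0.35. For complex III, 7 of 9 lay above 0, with UQCC2 at 128 on the CPEB4-labelled array and 77.7 on the HCT116-GFP array (0.72) and UQCC3 at 2602 and 1826 (0.51).

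For complex IV, 17 of 25 assembly factors lay above 0. Of the 25, 5 were at least 25% higher (20%, against 17.7% of all genes and 6.80% of the brightest 25%). COX20, a chaperone of the mitochondrially encoded subunit that binds copper, read 5481 on the CPEB4-labelled array and 3300 on the HCT116-GFP array (0.73), with the lowest of its 3 probe sets at 0.37. COA7 read 2086 on the CPEB4-labelled array and 1320 on the HCT116-GFP array (0.66), and 0.46 by its dimmer probe set, and CMC1 read 6797 and 5179 (0.39). COX10, which acts in making the haem of the complex, was the 1 at least 20% lower, at 721 on the CPEB4-labelled array and 931 on the HCT116-GFP array (−0.37). For complex V, 4 of 7 lay above 0, and DMAC2L (0.70) had probe sets from −0.65 to 1.11.

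Genes that feed or regulate the chain went both ways, beside backgrounds of 50.1% above 0, 17.7% at least 25% higher and 17.9% at least 20% lower. In the brightest 25% of genes the shares past the rule of size were 6.80% and 7.62%. CYCS, cytochrome c itself, read 29149 on the CPEB4-labelled array and 27870 on the HCT116-GFP array (0.06). Of 18 genes of cytochrome c, ubiquinone synthesis and flavoproteins that feed ubiquinone, 11 lay above 0, with 3 (16.7%) at least 25% higher (COQ8B at 0.77, DHODH at 0.40 and COQ4 at 0.35) and 2 (11.1%) at least 20% lower (COQ7 at −0.54 and COQ10A at −0.49). The lowest kept probe sets of DHODH and COQ4 read −0.22 and −0.02. COQ8B was dim, at 253 on the CPEB4-labelled array and 149 on the HCT116-GFP array. Of 12 measured citric acid cycle genes 8 lay above 0, with OGDH at 0.55 and IDH2 at −0.38. OGDH was dim, at 159 on the CPEB4-labelled array and 108 on the HCT116-GFP array, and a dimmer probe set of IDH2 read 0.17. Among 16 regulators of mitochondrial transcription and biogenesis 10 lay above 0. The pair that forms the factor GABP (also called NRF-2) differed in opposite directions: the DNA-binding GABPA read 1343 on the CPEB4-labelled array and 1811 on the HCT116-GFP array (−0.43), and its partner GABPB1 read 898 and 613 (0.55), each with both probe sets on its own side. The factor NRF1 read 518 and 510.1 on those arrays (0.02), with probe sets from −0.66 to 0.62, and TFAM, which packs mitochondrial DNA and acts in its transcription, differed by −0.10. TEFM (0.51) and the polymerase subunit POLG (0.49) were among the 4 of 16 (25%) that were at least 25% higher.

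Both ribosomes give lists of bright genes to set beside the subunits. Of 75 mitochondrial ribosomal protein genes 52 lay above 0 (69.3%, against 50.1% of all genes), with a median of 0.12. Of the 75, 8 were at least 25% higher (10.7%) and 0 at least 20% lower. Of 51 kept cytosolic ribosomal protein genes 3 lay above 0 (5.88%), with a median of −0.13 and none past the rule of size. Past that rule lay 17.7% of all genes on the higher side and 17.9% on the lower. In the brightest 25% of genes these shares were 6.80% and 7.62%. That bin held 68 of the 75 mitochondrial and 49 of the 51 cytosolic genes. The lists differ in brightness: 49 of the 51 cytosolic genes, but 1 of the 75 mitochondrial ones, reached the level of 14011 units, above which 32.4% of all genes lay above 0. These values stand side by side, with no test between the groups.

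Promoter sequences, taken from the RefSeq promoter table of build GRCh38.p14 and covering 250 bases before to 50 bases after each gene start, were matched for 68 of the 80 members. The NRF1 core has the letters shown in capitals for SDHA below, with any base allowed at the sixth position, and was searched on both strands. It was found in 16 of the 68 (23.5%), against 8.22% of 15843 protein-coding promoters. The ETS core CCGGAAG, the kind of site that GABP recognises, was found in 18 (26.5%, against 14.0%), and the YY1 core, shown in capitals for UQCRC1 below, in 3 (4.41%, against 1.37%), NDUFA9, NDUFS4 and UQCRC1. Median GC content was 60.7% for the members and 62.7% for all. The windows below show the NRF1 core in capitals for SDHA, where it recurs at even steps, and for 1 member of each other complex, and the YY1 core for UQCRC1. Each is 30 bases long, 5′ to 3′ on the strand of the gene. In COX8C the core reads on the opposite strand, so its reverse complement is in capitals.
SDHA, chr5:218144-218173, + strand: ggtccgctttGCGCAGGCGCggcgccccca
SDHA, chr5:218193-218222, + strand: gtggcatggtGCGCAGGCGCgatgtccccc
SDHA, chr5:218242-218271, + strand: ccggcgtggtGCGCAGGCGCggtatccccc
SDHA, chr5:218291-218320, + strand: ccggtgtggtGCGCAGGCGCagtctgcgca
NDUFA3, chr19:54102772-54102801, + strand: gtgctccaggGCGCACGCGCagccctggga
UQCR10, chr22:29767351-29767380, + strand: gtcggccccaGCGCAGGCGCggtggcgcga
COX8C, chr14:93347157-93347186, + strand: cgtggctgggGCGCCTGCGCaaaccagctg
ATP5F1C, chr10:7788145-7788174, + strand: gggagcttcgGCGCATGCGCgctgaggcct
UQCRC1, chr3:48609604-48609633, − strand: ctgcagctggAAGATGGCGGCgtccgtggt

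In SDHA the core begins 166, 117, 68 and 19 bases before the gene start, so the copies are evenly spaced, and all 4 carry the same bases. The cores in COX8C and UQCR10 begin 15 and 8 bases before the start. Members with and without the NRF1 core had like differences. Of 15 kept members with it 11 lay above 0 (median 0.08), and of 49 kept members without it 36 did (median 0.10). For the ETS core, 11 of 18 kept members with it lay above 0 (median 0.02) and 36 of 46 without it (median 0.11). A match is only a run of letters, and binding of these factors was not measured.

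**Figure D5:**
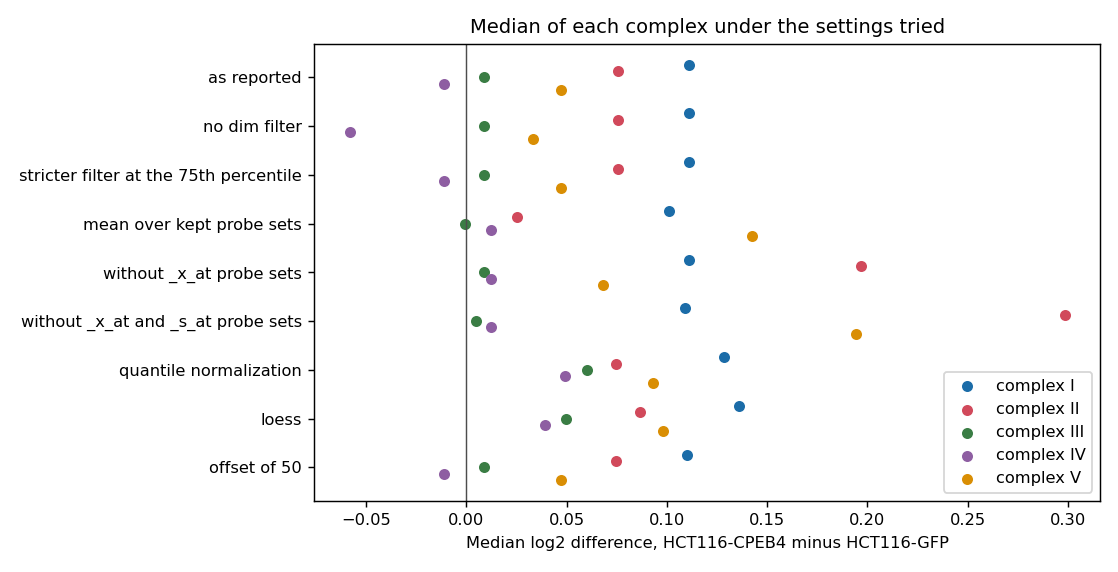
Median log2 difference (HCT116-CPEB4 minus HCT116-GFP) of each complex as reported and under the 8 other settings. Complex I stays between 0.10 and 0.14 throughout, complex IV lies on both sides of 0, and complex II reaches 0.30 where 2 of its genes are left.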

How the data were processed

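The deposited table holds 1 linear intensity for each of 54675 probe sets on 2 arrays of biotin-labelled material. Per the submitters' processing notes the authors used Partek; its role, the background correction, the summarisation and the scaling are not stated there. Both arrays have a trimmed mean of 500.1 (2% removed at each end), as arrays scaled to a common level do. Per the labels, the columns were assigned by sample, and 0 columns were left unused.

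Probe sets were named by the platform annotation and updated by Entrez identifier to RefSeq GRCh38.p14. Of them 41097 had 1 gene, 1801 several and 11777 none; 41043 of the single-gene ones were found in RefSeq. Several-gene, unnamed and 62 control probe sets were left out. Differences were taken as log2 without an offset; the dim filter kept 25010 probe sets and 13704 genes. Named members followed a rule over symbols, core subunits, paralogs, extremes within a complex and probe set gaps. Members and lists were chosen with earlier results of these data known. The calculation was tested on simulated arrays. Protein lengths and sequences were planned but not used here. Python 3.11.15, pandas 2.3.3 and statsmodels 0.14.6 were used. Alternatives covered filters, probe set choice, suffixes that mark possible cross-hybridisation (_x_at, _s_at), quantile normalization, loess (span 0.3) and an offset of 50.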

Additional observations from a re-analysis of the deposited data

How the results depend on the processing

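The median over all members stayed between 0.05 and 0.09 under the planned settings and those added after the data were seen (both arrays at or above the dim filter, and leaving out COXFA4 and COXFA4L2), and that of complex I between 0.10 and 0.14. That of complex V (0.05) was 0.03 without the dim filter, 0.14 under the mean over probe sets, 0.07 without _x_at probe sets, 0.19 without _x_at and _s_at probe sets, 0.09 after quantile normalization and 0.10 after loess. Of 74 members 16 changed sign under at least 1 setting, 9 of them with the choice of probe sets and 9 with a scaling. The median of complex IV (−0.01) was above 0 under the mean over probe sets, without _x_at probe sets and without _x_at and _s_at probe sets (0.0121 in each), after quantile normalization (0.0492) and after loess (0.0393). The median of complex III was −0.00048 under the mean over probe sets. That of complex II was 0.20 without _x_at probe sets and 0.30, over 2 genes, without _x_at and _s_at probe sets. The count of members at least 25% higher was 12 under the mean over probe sets. The count at least 20% lower was 4 without the dim filter, 1 under the stricter filter and 6 without _x_at and _s_at probe sets, over 56 members. The count at 2-fold higher was 2 without the dim filter, under the mean over probe sets and without _x_at and _s_at probe sets, and 0 under the stricter filter, with the offset and where both arrays had to reach the dim filter. The causes were not tested, except that filters change how many members enter. NDUFV3 ran from 0.07 to 0.57, SDHC from 0.02 to 0.57 and COX6A2 from 0.90 to 1.71. ATP5F1E, COXFA4, COX7A2L and COX4I2 stayed past the rule of size in their direction in every setting that kept them. Each has 1 kept probe set, so the choice of probe sets could not change its value, and a filter could only drop it. Only the scalings and the offset could move these values. No paired analysis was possible because each group has 1 array. No replicate could be left out for the same reason.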
